A study of Mus musculus with 3 samples.

Results

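Anergy is the unresponsive state of a T cell that met antigen without co-stimulation. The 10 genes described here are linked to it and to the control of signalling from the T cell antigen receptor. They are the ubiquitin ligase genes Cbl, Cblb, Itch, Nedd4, Rnf128 and Peli1, the adaptor gene Ndfip1, the diacylglycerol kinase genes Dgka and Dgkz, and Ubash3a. The genes were taken by name, and all 10 were found among the 55536 annotated genes of the deposited tables. Expression was measured by sequencing of polyadenylated RNA from helper (CD4) T cells labelled effector memory, a kind that has met antigen before. They came from 1 male adult mouse, 5 months old, of strain B6.SJL-Ptprca Pepcb/BoyJ. The 3 libraries, numbered 1, 2 and 3, are labelled technical replicates of a single biosample, and the labels give neither a treatment nor the gate that defined the cells. There was no second condition to set the cells against, and every SD below measures the spread between libraries of the same biosample.

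A ubiquitin ligase moves ubiquitin from a conjugating enzyme (E2) to a target protein. RING ligases such as Cbl, Cbl-b and GRAIL, the product of Rnf128, bring the loaded E2 to the target, whereas HECT ligases such as Itch and Nedd4 first take the ubiquitin onto a cysteine of their own. Ndfip1 recruits and activates HECT ligases of the NEDD4 family. Diacylglycerol kinases turn diacylglycerol, the lipid messenger made by phospholipase C gamma, into phosphatidic acid, which ends its action on RasGRP and protein kinase C. Mice that lack Cblb, Itch, Ndfip1 or Dgkz have overactive T cells.

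Expected counts on annotated genes came to 17474991, 15303615 and 16882311 in libraries 1, 2 and 3. Library 1 stood apart: its Spearman correlation with libraries 2 and 3 over detected genes was 0.9256 and 0.9253, against 0.9900 between libraries 2 and 3. Values are therefore given by library. The markers of T cells were detected, 7 of 7, at a TPM (transcripts per 1000000 transcripts) of at least 1 in each library. Cd4 had 268.7, 541.4 and 523.4 TPM. Of the CD8 T cell markers, Cd8a had 0, 0.080 and 0.050 TPM, while Cd8b1 was detected at 5.650, 8.100 and 10.79 TPM. Cd44, the surface marker of antigen-experienced T cells, had 56.29, 150.0 and 140.8 TPM. Ccr7, a lymph node homing receptor, had 379.7, 389.2 and 372.9 TPM. Whether the cells bear out the effector memory label was not tested. Of 38 markers of other cell types 7 were detected and 4 had no count, and the summed level of the 38 was 68.74, 95.05 and 82.37 TPM. The detected ones were Cd8b1, Il2ra, Ikzf2, Zbtb46, Klrb1c, Eomes and Epcam.

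The splice edges of a pair of retained-intron transcripts are printed because Cblb-202 held a mean of 85.08% of the Cblb level and Peli1-204 was the second largest form of Peli1. A retained-intron transcript is annotated as reading on from an exon into the intron and carries no annotated coding sequence. Each line holds 20 bases of the exon and 40 bases of the intron behind it, with the first 6 intron bases in capitals. Both were read from the GENCODE M21 transcripts on GRCm38, forward strand, at chr16:52047430-52047489 for Cblb-202 and chr11:21142638-21142697 for Peli1-204.
Cblb-202: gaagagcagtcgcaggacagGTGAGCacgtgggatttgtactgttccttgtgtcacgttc
Peli1-204: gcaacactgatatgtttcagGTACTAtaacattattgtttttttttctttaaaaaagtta
In both the capitals begin with GT, the letters at which an intron is normally cut, so the uncut donor edge is part of the annotated transcript. The letters GT stood there on the transcript strand in 84.0% of 14057 annotated retained-intron transcripts that share an exon start with a coding transcript. Cblb-202 departs from the coding transcript Cblb-206 behind exon 3 of 19 and keeps the first 3456 bases of an intron of 64651 bases. Peli1-204 departs from Peli1-202 behind exon 3 of 6 and keeps 348 of 4257 intron bases. No AATAAA or ATTAAA, the usual polyadenylation signals, was found on the transcript strand in the last 50 bases of Cblb-202 or Peli1-204. Either hexamer was present there in 22.4% of 21848 retained-intron transcripts and in 50.2% of 58787 protein-coding transcripts.

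All 10 genes were detected, against 21.1% of all annotated genes, and their levels spanned more than 2 orders of magnitude. Their median level was 166.4 TPM, against 18.29 TPM over the genes tested for differing counts. Ndfip1 was the most abundant, followed by Cblb, Dgka, Peli1, Ubash3a, Dgkz, Itch, Cbl, Rnf128 and Nedd4. Neighbours in this order were taken as apart where their order was the same in every library and the gap in mean log2(TPM + 1) exceeded the larger SD. On that measure 5 of 9 neighbour pairs were apart. Ndfip1 lay above Cblb, Peli1 above Ubash3a, Dgkz above Itch, Itch above Cbl, and Rnf128 above Nedd4. Cblb and Dgka, Dgka and Peli1, Ubash3a and Dgkz, and Cbl and Rnf128 did not differ beyond their spread. Without library 1, 8 of the 9 pairs were apart and Dgkz, at 195.4 TPM, lay above Ubash3a at 177.1 TPM. In bulk RNA, fewer cells that use a gene and less of its RNA per cell cannot be told apart.

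**Figure D1:**
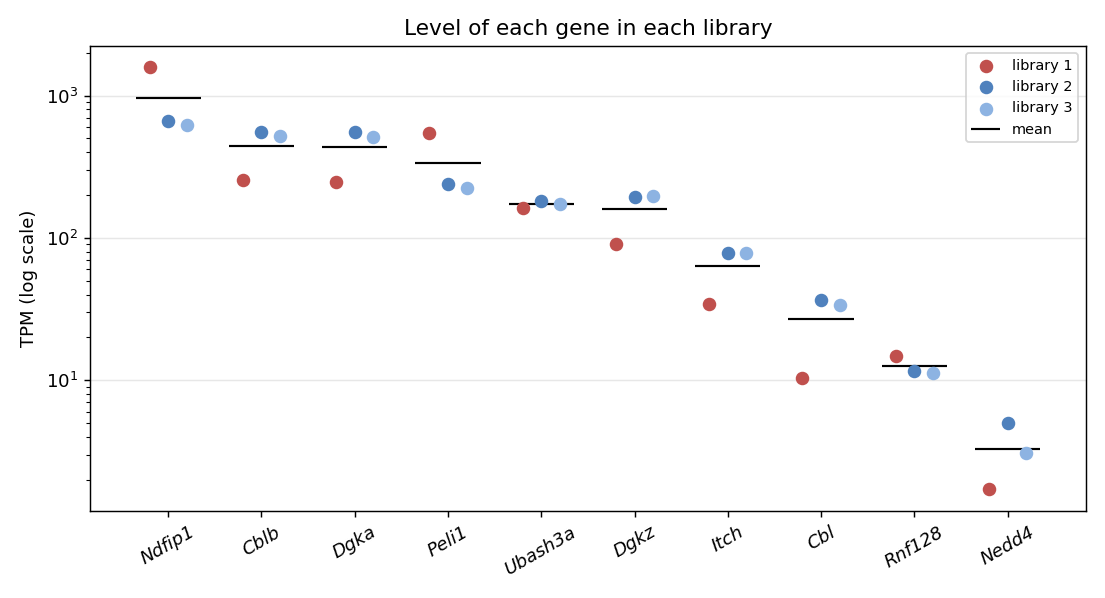
TPM on a log scale of each gene in libraries 1, 2 and 3 (points) with the mean (line). Ndfip1 and Peli1 lie highest in library 1, at 1586 and 547.0 TPM, while Cblb, Dgka, Dgkz, Itch, Cbl and Nedd4 lie lowest there.

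Counts of 9 of the 10 genes differed between the libraries beyond counting error (Pearson chi-square test, Benjamini-Hochberg adjusted p below 0.05), against 75.8% of the 13177 genes tested. Of these, 2 were at least 1.5-fold higher in library 1 than in libraries 2 and 3, which 16.2% of genes were, and 6 were at least 1.5-fold lower, which 23.8% were. No test was made of how far these counts depart from the shares over all genes. The median log2 ratio of library 1 over the other libraries was -0.97 for the 10 genes and -0.10 for all genes tested. With libraries 2 and 3 alone, 1 of the 10 genes passed the test, against 16.1% of genes. The p-values of the test are too small where reads copied from the same molecule were counted more than once, since only counting error enters it.

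Among the RING ligases, Cblb, which sets the need for CD28 co-stimulation in mouse T cells, had the highest mean over all transcripts, though Peli1 exceeded it in library 1 and, over coding transcripts, in every library. Cblb (chromosome 16, 52031225 to 52208048) had 255.6 TPM in library 1, against 553.6 and 516.4 TPM in libraries 2 and 3, a mean of 441.9 ± 162.4 (SD, n = 3). Library 1 lay below both others, 2.09-fold below their geometric mean (chi-square 3651, adjusted p underflowed to 0 in double precision). Only 341 of the 11694 detected genes had a higher mean TPM.

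Cbl, the closest relative of Cblb and a ligase for activated receptors and kinases, was far lower. Cbl (chromosome 9, 44142976 to 44234049) had 10.32 TPM in library 1, against 36.60 and 33.58 TPM in libraries 2 and 3, a mean of 26.83 ± 14.38 (SD, n = 3). It had the largest ratio of the 10 genes in TPM, 3.19-fold lower in library 1 (chi-square adjusted p = 2.11e-117). In TMM-scaled counts its log2 ratio was -1.46, and Ndfip1 had the larger ratio. The ratio of Cblb to Cbl was 24.77 in library 1 and 15.13 and 15.38 in libraries 2 and 3, in TPM summed over all transcripts. The remaining family gene, Cblc, an epithelial form, had no count, which at 3 counts allows up to 0.172, 0.196 and 0.178 counts per 1000000 in the libraries.

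Peli1 encodes a RING-type ligase that targets the NF-kappaB subunit c-Rel in mouse T cells. Peli1 (chromosome 11, 21091291 to 21150323) had 547.0 TPM in library 1, against 240.8 and 224.6 TPM in libraries 2 and 3, a mean of 337.4 ± 181.7 (SD, n = 3). Library 1 was 2.35-fold higher than the others (chi-square 8513, adjusted p underflowed to 0). Peli1 and Cblb therefore changed places between libraries, with a Peli1 to Cblb ratio of 2.140 in library 1 and 0.4349 and 0.4348 in libraries 2 and 3. Peli1 held 99.78% ± 0.175 of the Pellino family's TPM (SD, n = 3), since Peli2 and Peli3 were not detected.

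Rnf128 encodes GRAIL, a membrane-bound ligase first known from anergic mouse T cells. Rnf128 (chromosome X, 139563316 to 139673145) had 14.78 TPM in library 1, against 11.56 and 11.16 TPM in libraries 2 and 3, a mean of 12.50 ± 1.985 (SD, n = 3). The difference passed the test (chi-square adjusted p = 8.64e-10) at a size of 1.28-fold, below the 1.5-fold mark. It rested on 429.0 expected counts in library 1 and 277.0 and 280.0 in libraries 2 and 3.

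Of the HECT ligases, Itch, which targets JunB in mouse T cells, was detected well above Nedd4, a ligase that acts on Cbl-b. Itch (chromosome 2, 155133509 to 155226855) had 34.05 TPM in library 1, against 77.98 and 78.47 TPM in libraries 2 and 3, a mean of 63.50 ± 25.51 (SD, n = 3). Library 1 was 2.26-fold lower (chi-square adjusted p = 1.40e-62). The size depended on the measure, with a log2 ratio of -1.18 in TPM, -0.50 over coding transcripts, -0.68 in TMM-scaled counts and -0.54 in the second gene table. Itch was also the gene called between libraries 2 and 3 (chi-square adjusted p = 0.00941). Their expected counts, 2526 and 2525, were near equal at unequal depth, and their TPM differed by a log2 ratio of -0.01.

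Nedd4 (chromosome 9, 72662346 to 72749852) had 1.710 TPM in library 1, against 4.980 and 3.100 TPM in libraries 2 and 3, a mean of 3.263 ± 1.641 (SD, n = 3). Library 1 was 1.83-fold lower (chi-square adjusted p = 0.00256), on 82.99 expected counts against 118.0 and 137.0. In TMM-scaled counts the log2 ratio was -0.55, short of the 1.5-fold mark. The order of libraries 2 and 3 differed between counts and TPM. Nedd4-202, a coding transcript of 660 bases, was given 11.85 counts and 2.190 TPM in library 2 and was listed at 0 in library 3, whereas the long form Nedd4-201 had 1.350 TPM in library 1 and 1.990 and 1.980 TPM in libraries 2 and 3.

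Among the 9 HECT ligases of the NEDD4 family, Itch held 27.61% ± 11.58 of the summed TPM and Nedd4 1.409% ± 0.692 (SD, n = 3). Itch took 14.32% in library 1, against 32.93% and 35.57% in libraries 2 and 3. Wwp2, a further family member, had 130.5 TPM in library 1, against 74.43 and 66.07 TPM, so over all transcripts it led the family in library 1 and Itch led it in libraries 2 and 3. Over coding transcripts Wwp2 lay above Itch in every library, with 98.53 TPM against 26.13 in library 1, 51.65 against 43.38 in library 2 and 48.00 against 32.22 in library 3.

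**Figure D2:**
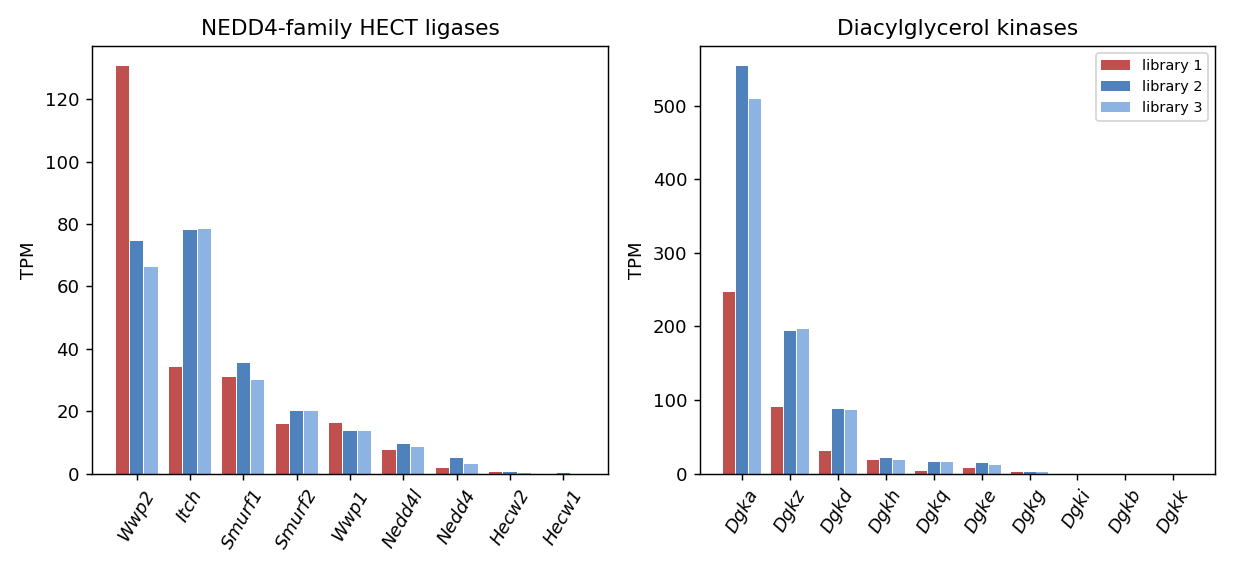
TPM of the NEDD4-family HECT ligase genes (left) and the diacylglycerol kinase genes (right) in libraries 1, 2 and 3, on separate linear axes from 0. Wwp2 exceeds Itch in library 1, with 130.5 against 34.05 TPM, while Dgka and Dgkz lead their family in every library.

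Ndfip1, the adaptor that frees Itch and Nedd4 from self-inhibition, was the most abundant of the 10 genes. Ndfip1 (chromosome 18, 38410396 to 38465303) had 1586 TPM in library 1, against 668.0 and 625.1 TPM in libraries 2 and 3, a mean of 959.8 ± 543.0 (SD, n = 3). Library 1 was 2.45-fold higher (chi-square 13874, adjusted p underflowed to 0), and 132 detected genes had a higher mean. The ratio of Ndfip1 to Itch was 46.59 in library 1 and 8.566 and 7.966 in libraries 2 and 3, with Ndfip1 higher and Itch lower in library 1. Ndfip2, the related adaptor, had 131.7 TPM in library 1, against 79.99 and 77.02 TPM, so Ndfip1 made up 90.22% ± 1.834 of the pair (SD, n = 3).

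Of the kinases, Dgka, the calcium-bound form, and Dgkz, which carries ankyrin repeats, led the diacylglycerol kinase family. Dgka (chromosome 10, 128720134 to 128744855) had 247.4 TPM in library 1, against 553.3 and 509.4 TPM in libraries 2 and 3, a mean of 436.7 ± 165.4 (SD, n = 3). Library 1 was 2.14-fold lower (chi-square 2685, adjusted p underflowed to 0). Dgkz (chromosome 2, 91932824 to 91975864) had 90.27 TPM in library 1, against 193.7 and 197.1 TPM, a mean of 160.3 ± 60.72 (SD, n = 3), and was 2.15-fold lower (chi-square adjusted p = 1.38e-260).

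The kinases kept their proportion in TPM although both levels were lower in library 1, but not in a second gene table of the same libraries. In TPM, Dgka was 2.741, 2.857 and 2.584 times Dgkz in libraries 1, 2 and 3, a ratio of 2.727 ± 0.137 (SD, n = 3). Of the TPM summed over 10 family genes, Dgka took 61.68%, 62.16% and 60.45% and Dgkz 22.50%, 21.76% and 23.39%. In the whole-number counts of that table, Dgka was 2.004 times Dgkz in library 1, against 1.451 and 1.444 times in libraries 2 and 3. Neither ratio was tested. Dgka shares 105 exon bases with Pmel and Dgkz 222 with Gm9821, both on the opposite strand. The sources used here do not say whether counting used strand, so both are uncertain to the extent of these partners, which had at most 2.750 and 0.160 TPM.

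Ubash3a encodes a ubiquitin-binding suppressor of T cell receptor signalling that partners with Cbl proteins. Ubash3a (chromosome 17, 31207873 to 31246892) had 163.4 TPM in library 1, against 180.4 and 173.8 TPM in libraries 2 and 3, a mean of 172.5 ± 8.566 (SD, n = 3). It was the single gene of the 10 that did not pass the test (chi-square adjusted p = 0.102), with the smallest spread, 4.965% of its mean. It held 91.21% ± 0.897 of the TPM summed with Ubash3b, which encodes the phosphatase STS-1, and 66.29% ± 0.930 over coding transcripts (SD, n = 3).

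The forms in which these genes were transcribed differed widely. Transcript shares within a gene differed between libraries for 10 of 10 genes (chi-square of transcripts by libraries, adjusted p below 0.05), against 87.1% of 9810 genes tested. Transcript counts are estimates and carry an error of assigning reads to forms that this test does not cover. A call is therefore no proof that the forms themselves differed. Of the 75 annotated transcripts of the 10 genes, 40 reached 1 TPM in each library. Protein-coding transcripts held a median of 85.57% of the level over the 10 genes and 85.18% over 9900 detected protein-coding genes. Cblb, Ubash3a, Itch and Dgkz lay below that median by more than their SD, and Peli1 lay near it at 84.90% ± 4.364 (SD, n = 3).

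Cblb was the extreme case. Cblb-202, the retained-intron transcript whose splice edge is printed above, took 81.72% of Cblb in library 1 and 86.63% and 86.90% in libraries 2 and 3. It was given 8713 expected counts in library 1, against 16516 and 18039 in libraries 2 and 3, with a posterior SD in the deposited tables of 16.96, 19.74 and 19.07 counts. Of its 3930 bases, 3301 lie in no other transcript. Coding transcripts held 17.95% of Cblb in library 1 and 12.74% and 12.34% in libraries 2 and 3, and 326 of the 9900 genes had a lower mean coding share. In coding transcripts alone, Cblb had 45.88 TPM in library 1, against 70.54 and 63.74 TPM, a mean of 60.05 ± 12.74 (SD, n = 3).

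**Figure D3:**
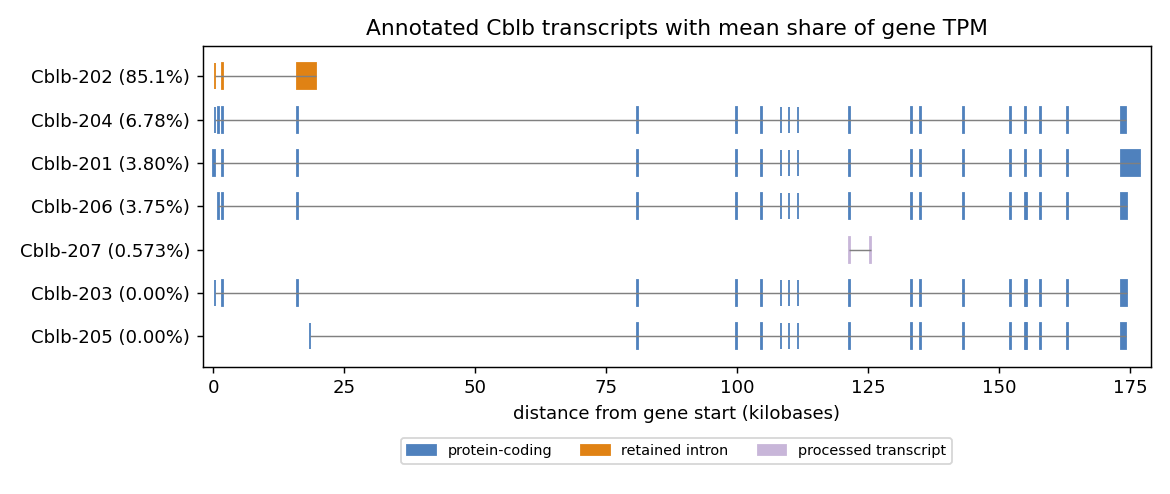
Annotated exons of the Cblb transcripts by distance from the gene start in kilobases, with each transcript's mean share of the Cblb TPM; the thinnest exons are drawn at a minimum width. Cblb-202 ends near the gene start, while the coding transcripts run the length of the gene and each hold under 7% of the level.

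Ubash3a was led by Ubash3a-204, a processed transcript with no annotated coding sequence, at 55.57% in library 1 and 49.52% and 42.28% in libraries 2 and 3. Only 119 of its 2539 bases lie in no other transcript, so its share depends on how reads common to several forms were divided. Its expected counts of 2430, 1973 and 1895 had posterior SDs of 63.45, 52.28 and 54.16. The coding form Ubash3a-201 took 10.64%, 11.63% and 11.43%, and all coding forms together took 16.83%, 18.52% and 21.59%. Ubash3a-202, a nonsense-mediated decay form, averaged 12.03% ± 3.291, and Ubash3a-206, a retained-intron form of 1 exon, 11.35% ± 4.214 (SD, n = 3).

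Itch had the widest spread in coding share among the 10 genes, an SD of 17.93 percentage points. Its coding transcripts held 76.72% in library 1 and 55.64% and 41.06% in libraries 2 and 3. Itch-201 took 42.40%, 34.31% and 25.67%, and Itch-202, with the same coding length of 2592 bases, 34.34%, 21.33% and 15.39%. Itch-204, a retained-intron form behind exon 2, took 9.42% in library 1, against 28.22% and 30.80%, and led in library 3. Of its 1171 bases 1017 lie in no other transcript, and its posterior SDs of 0.730, 1.650 and 2.930 counts are small against 38.66, 219.1 and 280.9 counts. The posterior SDs of Itch-201, 187.7, 277.9 and 289.8 counts, were larger, so the division between Itch-201 and Itch-202 is less sure.

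Dgkz-201, the leading coding form of Dgkz, took 51.93%, 63.16% and 47.54% in libraries 1, 2 and 3, and the decay form Dgkz-212 took 18.96%, 17.69% and 21.89%. Dgka was nearly all Dgka-201, at 92.24%, 90.10% and 88.20%, with the decay form Dgka-203 at 7.500%, 9.580% and 11.46%. Peli1-201 took 88.86%, 83.34% and 80.31% of Peli1, and the retained-intron form Peli1-204 took 9.010%, 11.70% and 14.64%. Retained-intron transcripts had a smaller share in library 1 than in libraries 2 and 3 in every gene except Rnf128, which had none, and Dgkz. Those of Dgkz had 21.65% in library 1, against 9.495% and 16.47%. A single Dgkz form of 480 bases, with no base of its own, was given 15.82% of Dgkz in library 1, against 0.910% and 6.780%. Its 66.15 counts in library 1 had a posterior SD of 16.10, so the Dgkz exception is not sure. Those of Nedd4 had 5.233% in library 1, against 13.86% and 5.466%, on few counts. Those of Cbl had 0% in library 1, against 5.683% and 5.122%, also on few counts. How many of all detected genes had a smaller retained-intron share in library 1 was not counted. Over all detected protein-coding genes the median coding share was 87.76% in library 1 and 85.03% and 84.36% in libraries 2 and 3.

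Ndfip1-204 took 86.32% of Ndfip1 in library 1 and 63.85% and 73.98% in libraries 2 and 3. Only 35 of its 1796 bases lie in no other transcript. Its expected counts of 25710, 6612 and 8368 had posterior SDs of 417.0, 359.4 and 349.4. Cbl-201 took 58.75%, 50.35% and 58.16% of Cbl, Cbl-206 32.83%, 17.49% and 11.78%, and Cbl-204, also coding, was listed at 0 in library 1 and took 16.66% and 16.73% in libraries 2 and 3. These Cbl forms have no base of their own. Nedd4-201 took 78.75%, 39.98% and 63.84% of Nedd4, and the short Nedd4-202 led in library 2 with 43.92%. Rnf128-201 took all of Rnf128 in libraries 1 and 2 and 85.59% in library 3. The rest in library 3 was a noncoding form with 12.85 counts and a posterior SD of 6.100. That form was listed at 0 in libraries 1 and 2 with posterior SDs of 3.930 and 4.320 counts, so the difference is unsure.

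**Figure D4:**
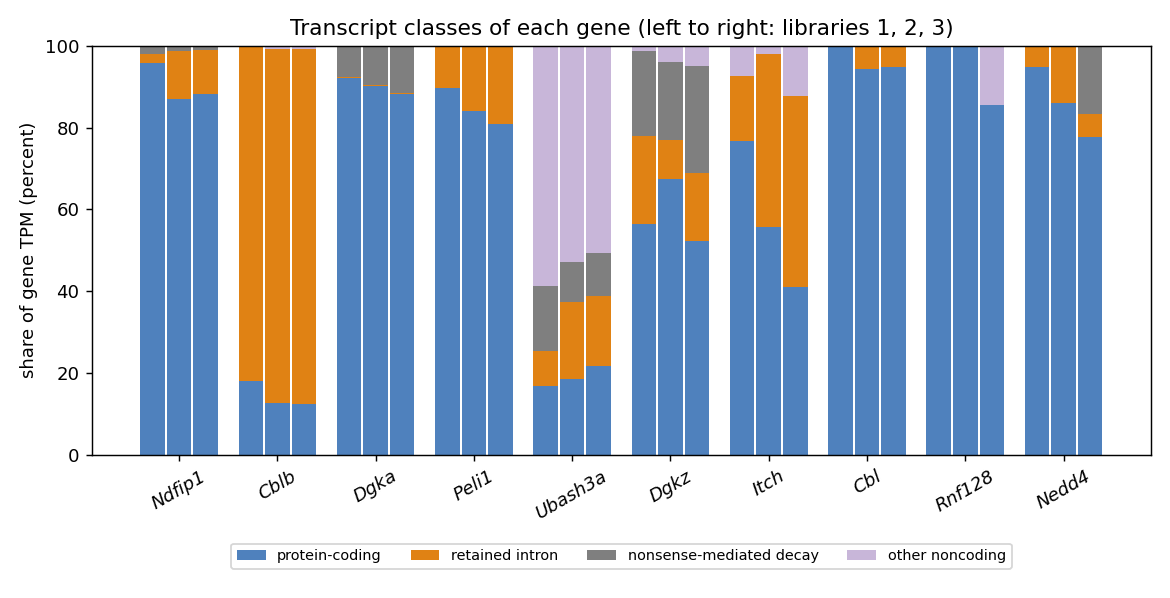
Share of each gene's TPM, in percent, held by protein-coding, retained-intron, nonsense-mediated decay and other noncoding transcripts, with libraries 1, 2 and 3 from left to right for each gene. Retained-intron transcripts hold 81.72% to 86.90% of Cblb, and other noncoding transcripts 50.63% to 58.79% of Ubash3a.

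Counting coding transcripts only, an alternative chosen after seeing the data, changed the order of the genes to Ndfip1, Dgka, Peli1, Dgkz, Cblb, Itch, Ubash3a, Cbl, Rnf128 and Nedd4. The median level then was 46.98 TPM. Cblb lay below both kinases on this measure, though it did not differ from Dgkz beyond their spread, and its excess over Cbl narrowed, since it held 81.64% of the family's coding TPM in library 1 and 67.14% and 66.67% in libraries 2 and 3. Dgka and Dgkz kept 68.66% ± 0.989 and 16.35% ± 1.198 of the coding TPM of the kinase family (SD, n = 3).

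A second gene table of the same libraries, on GENCODE M4 annotation with whole-number counts, held all 10 genes and gave smaller differences between libraries for several. There 8 of 10 genes passed the chi-square test, against 67.5% of 10242 genes. Ndfip1 had 1459 counts in library 1, against 1340 and 1378 in libraries 2 and 3, a log2 ratio of 0.02 after scaling (chi-square adjusted p = 0.727), where the first table had 28697, against 9555 and 10467. Peli1 had 2530 counts, against 1931 and 1973, a log2 ratio of 0.29 (chi-square adjusted p = 8.54e-14). Cblb had 1727 counts, against 2101 and 2200, a log2 ratio of -0.40, and Dgka 3344, against 4235 and 4254, a log2 ratio of -0.43. Dgkz had 1669 counts, against 2919 and 2945, a log2 ratio of -0.90.

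The high library 1 levels of Ndfip1 and Peli1 thus hold for the first table, and in the second Ndfip1 did not pass the test. The first table's count was 19.67 times the second's for Ndfip1 in library 1, against 7.131 and 7.596 times in libraries 2 and 3, while the median was 1.877 over all genes and 3.591 over the 10% of genes with the highest counts. Across genes, the second table's log2 ratio of library 1 was larger by 0.911 per unit of the first table's (TMM-scaled counts), and by 0.540 in those 10%, so differences of abundant genes were smaller in the second table in general. The largest count of any gene was 279165 in the first table and 11340 in the second. In TMM-scaled counts the tables were closer for Cbl, with log2 ratios of -1.46 and -1.57. They were also closer for Rnf128, with 0.57 and 0.42, and for Nedd4, with -0.55 in both. The same held for Itch, with -0.68 and -0.54, for Dgkz, with -1.06 and -0.90, and for Ubash3a, with 0.01 and 0.07. What sets the tables apart was not tested.

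**Figure D5:**
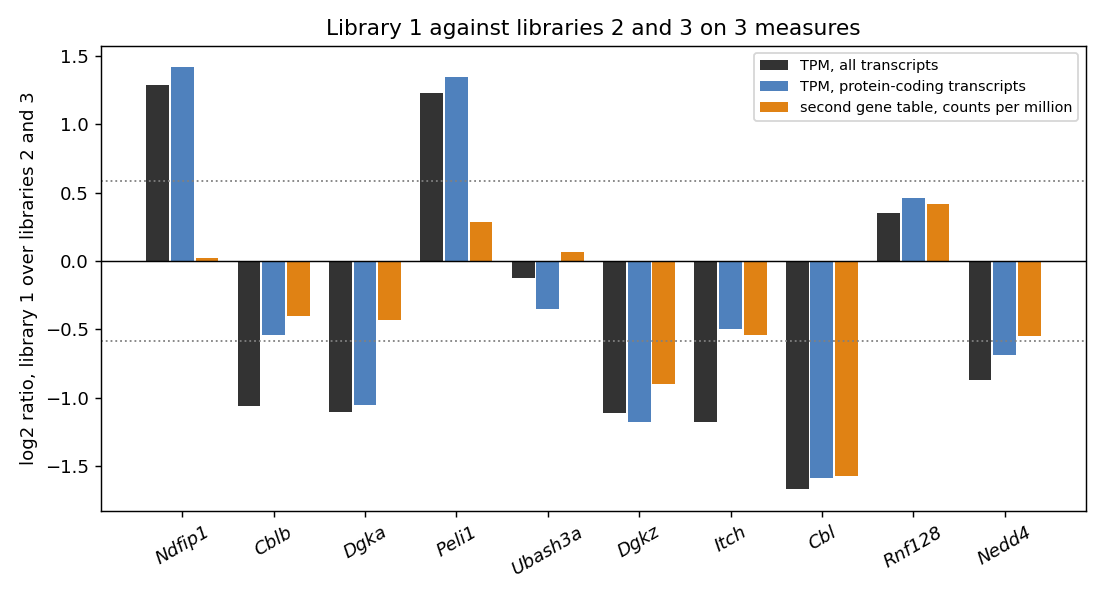
Log2 ratio of library 1 over the geometric mean of libraries 2 and 3 for each gene, from TPM over all transcripts, TPM over protein-coding transcripts and counts per 1000000 of the second gene table; dotted lines mark 1.5-fold. Cbl is lower in library 1 on each measure, while Ndfip1 stands at 1.29 in the first table and 0.02 in the second.

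The genes that work with these 10 were largely present. Of the E2 enzymes 6 of 6 were detected, led by Ube2d3 at 846.5 ± 176.3 TPM and Ube2v1, which works together with Ube2n, at 289.7 ± 202.2 TPM (SD, n = 3). Of these, 3 were called at least 1.5-fold higher in library 1, against 16.2% of all genes, and 0 lower, against 23.8%. The same shares hold as background for the counts of each list that follows. Of 15 described targets of the ligases, all were detected, led by Junb, the Itch target, at 9164 ± 4868 TPM and the adaptor gene Lat at 824.7 ± 519.4 TPM (SD, n = 3), with 3 called higher and 3 lower in library 1.

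Of 8 further genes of the NEDD4 family and its adaptors 6 were detected, led by Ndfip2 at 96.22 ± 30.72 TPM and Wwp2 at 90.34 ± 35.05 TPM (SD, n = 3), and Hecw1 and Hecw2 were not. The leading pair were the 2 called higher in library 1, and 0 were called lower. Of 12 other genes, for ligases, deubiquitinases and the phosphatase of Ubash3b, 9 were detected. They were led by Tnfaip3, the ubiquitin-editing enzyme A20, at 2063 ± 405.0 TPM and Dtx1, the Notch pathway ligase Deltex, at 164.9 ± 84.96 TPM (SD, n = 3). Cblc, Peli2 and Peli3 were the undetected ones. In library 1, 1 gene of this list was called higher and 2 lower.

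Of 8 further diacylglycerol kinases 5 were detected, led by Dgkd at 68.08 ± 32.50 TPM and Dgkh at 19.15 ± 1.547 TPM (SD, n = 3), without Dgkb, Dgki and Dgkk. Here 3 were called lower and 0 higher in library 1, against 23.8% and 16.2% of all genes. Of 10 genes of phospholipase C gamma, the RasGRP family and protein kinase C 7 were detected, without Plcg2, Rasgrp3 and Rasgrp4. The kinase C gene Prkch led at 264.9 ± 53.17 TPM, followed by the RasGRP family gene Rasgrp2 at 260.7 ± 46.49 TPM (SD, n = 3). Only 1 of the 10 was called lower in library 1 and 0 higher. It was Plcg1, phospholipase C gamma 1, with 42.03 TPM in library 1, against 156.2 and 138.5 TPM, a gene named after its values were seen.

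Of 16 further anergy-linked factors and surface genes 15 were detected, led by the receptor-induced factors Nr4a1 at 2839 ± 1079 TPM and Nr4a2 at 618.1 ± 152.4 TPM (SD, n = 3), and Lag3, an inhibitory receptor, was not. Of these, 2 were called higher and 9 lower in library 1, against 16.2% and 23.8% of all genes. Median log2 ratios of library 1 were -0.64 for this list, -0.68 for the other kinases and 0.55 for the E2 enzymes, beside -0.10 for all genes tested. The remaining lists lay nearer that background. Their medians were 0.08 for the NEDD4 family and adaptors and -0.23 for the list led by Tnfaip3. They were 0.13 for the list led by Prkch and -0.00 for the described targets.

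The protein-coding genes whose levels ran closest to Ndfip1 over the 3 libraries were Srsf7, Ppp1r15a and Dazap2, at Euclidean distances in log2(TPM + 1) of 0.049, 0.251 and 0.253. Srsf7 had 1640 TPM in library 1, against 664.4 and 623.9 TPM. Those closest to Cbl included Asxl1 and Pml, at distances of 0.056 and 0.068. Such a likeness rests on 3 libraries of the same biosample and describes the levels only.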

How the data were processed

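RNA-seq values of 3 libraries of 1 biosample were used. Per the file headers and the notes deposited with the files, the first gene table and the transcript table of each library, on mm10 with GENCODE M21, hold expected counts, TPM, FPKM and, for transcripts, the percent of the gene, as the authors deposited them; the second gene table, on GENCODE M4, holds whole-number counts deposited without a header. The authors scaled the deposited TPM and FPKM values within each library, and the deposited posterior SD was used as a score of how sure each expected count is. The sources used here do not give the aligner, the quantifier or the strand setting. Of 81881 rows, 26345 without an Ensembl gene ID (spike-in and numeric rows, with 53294, 45778 and 38308 counts in libraries 1, 2 and 3) were left out.

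Expected counts were rounded. Pearson's chi-square test asked whether genes with at least 30 counts differed among libraries, expected shares coming from TMM library sizes (edgeR 4.0.16, R 4.3.3). Within genes, transcripts of at least 5 counts were tested likewise. Both used Benjamini-Hochberg adjustment over all genes at 0.05, with scipy 1.17.1, numpy 2.4.6 and pandas 2.3.3 in Python 3.11.15. No edgeR quasi-likelihood test was run, since there is 1 group; p-values compare libraries that the labels call technical replicates. Both tests were checked on simulated counts, which held counting error only. Library 1 ratios use log2(TPM + 1), or log2(counts per 1000000 + 1) for the second table, which understates changes of low genes. Named genes are the 10 genes, the 2 highest and the undetected genes of each list, transcripts with a mean share of at least 10% or leading in a library, and the 3 genes nearest in pattern to Ndfip1 and to Cbl, of which 1 is not reported here. Members, the 7 lists and the ratio were chosen with earlier results of these data known. Alternatives included DESeq2 1.42.0 size factors.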

Additional observations from a re-analysis of the deposited data

How the results depend on the processing

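For the 9 genes called, the library 1 ratio kept its sign with TMM, DESeq2 size factors, a pseudocount of 0.1, coding transcripts only and the second table. That of Ubash3a, not called, was -0.12 in TPM, 0.01 with TMM and DESeq2 size factors and 0.07 in the second table. All 10 genes were detected at 0.5 TPM and 9 at 5 TPM. Leaving out 1 library at a time gave 1 to 9 of the 10 genes and 2010 to 9307 genes called for differing counts, 8 to 10 and 6417 to 7567 for transcript shares, a median level of 156.1 to 186.2 TPM and 5 to 8 neighbour pairs apart; the low count of calls and the 8 pairs came without library 1. Scaled by the median overdispersion of 14.10, 3656 genes and 7 of the 10 were called for differing counts, without Rnf128 (chi-square adjusted p = 0.499) and Nedd4 (chi-square adjusted p = 0.994). Scaled likewise by 9.240, 2016 genes and 6 of the 10 were called for transcript shares. Total counts and DESeq2 size factors each called all 10 genes, Ubash3a included (chi-square adjusted p = 0.00126 and 0.0362). With coding transcripts only the median level was 47.0 TPM and the median log2 ratio of library 1 was -0.52, against -0.97 with all transcripts. That ratio was -0.61 with TMM and -0.61 with DESeq2 size factors, and -0.41 in the second table, where 0 genes were at least 1.5-fold higher and 2 lower. With TMM or DESeq2 size factors 5 of the 10 genes were at least 1.5-fold lower, and 4 over coding transcripts. On each of these measures 2 were at least 1.5-fold higher. Where no value shows a cause, the cause was not tested. The coding-only values and the second-table ratios were added after seeing the data. No paired analysis was possible because the labels give 1 group. Depth limits Nedd4, with about 83 to 137 counts a library, and its transcript shares.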
